A study of Homo sapiens with 17 samples.

Results

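The genes described are those of the SWI/SNF ATPases and core subunits: SMARCA4, SMARCA2, SMARCB1, SMARCC1, SMARCC2, SMARCD1, SMARCD2, SMARCD3, SMARCE1 and ACTL6A. Listed CUT&RUN regions were assigned to a gene when they overlapped its RefSeq span (GRCh38.p14, the release of hg38 used here) extended by 25 kb on each side. All 10 genes were found by symbol, out of 20037 protein-coding genes, and their windows held 300 of the 266843 regions in the 8 lists. Cells were Nthy-ORI, a single immortalised line of human thyroid epithelium, and all were hormone-starved in stripped serum before treatment. They then received 10 nM T3, the active thyroid hormone, or vehicle (NaOH). The library labels give 6 h of treatment, while the protocol text of the same labels also mentions a longer one. Each condition was profiled with antibodies to 4 proteins: thyroid hormone receptor beta (TRβ), BRG1, ARID1A and PBRM1. Every combination had 2 libraries and 1 list of regions found in both of them, and 1 further IgG library was not analysed here.

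SWI/SNF complexes use ATP to slide or evict nucleosomes. Each complex holds 1 ATPase, either BRG1 (the product of SMARCA4) or BRM (the product of its paralog SMARCA2). In the BAF and PBAF forms, SMARCC, SMARCD, SMARCE1 and SMARCB1 subunits build a core, to which an actin module with ACTL6A binds. ARID1A marks the BAF form and PBRM1 the PBAF form of the complex. Nuclear receptors such as TRβ are known to recruit SWI/SNF to chromatin, and 3 of the 4 antibodies detect subunits of SWI/SNF itself. BRG1 could thus be read over its own gene.

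The promoters of 5 genes are shown because their starts span the range of listings found among the members. They come from RefSeq (GRCh38.p14), cover 250 bases before to 50 after the annotated start, and run 5′ to 3′ on the strand of the gene. Capitals mark the letters AGGTCA (the core letters of nuclear receptor sites), TGACTCA (the AP-1 site), CCAAT and GGGCGG (the GC box) on either strand. SMARCA4 and SMARCD2 were listed for TRβ with T3 only, SMARCB1 with T3 and with vehicle, and SMARCD1 and SMARCE1 in neither condition.
SMARCA4 (chr19:10960780-10961079, plus strand): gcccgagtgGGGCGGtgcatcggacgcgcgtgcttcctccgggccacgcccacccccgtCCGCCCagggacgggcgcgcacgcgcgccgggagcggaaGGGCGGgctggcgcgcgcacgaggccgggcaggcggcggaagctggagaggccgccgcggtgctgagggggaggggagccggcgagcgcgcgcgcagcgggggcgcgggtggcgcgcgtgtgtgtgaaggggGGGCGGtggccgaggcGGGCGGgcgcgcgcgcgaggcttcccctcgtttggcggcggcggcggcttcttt
SMARCD2 (chr17:63842636-63842935, minus strand): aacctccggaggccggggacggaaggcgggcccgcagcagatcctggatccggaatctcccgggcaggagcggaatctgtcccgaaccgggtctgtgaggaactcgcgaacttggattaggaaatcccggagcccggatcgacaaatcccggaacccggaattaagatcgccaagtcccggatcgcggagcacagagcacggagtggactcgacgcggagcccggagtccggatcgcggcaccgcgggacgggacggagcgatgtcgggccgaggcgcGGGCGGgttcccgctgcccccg
SMARCB1 (chr22:23786716-23787015, plus strand): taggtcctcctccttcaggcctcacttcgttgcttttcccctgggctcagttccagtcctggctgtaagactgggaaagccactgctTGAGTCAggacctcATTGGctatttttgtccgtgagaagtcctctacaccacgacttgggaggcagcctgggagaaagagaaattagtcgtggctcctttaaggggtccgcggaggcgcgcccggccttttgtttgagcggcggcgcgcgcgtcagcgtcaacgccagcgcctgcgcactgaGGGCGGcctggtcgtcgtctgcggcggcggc
SMARCD1 (chr12:50085092-50085391, plus strand): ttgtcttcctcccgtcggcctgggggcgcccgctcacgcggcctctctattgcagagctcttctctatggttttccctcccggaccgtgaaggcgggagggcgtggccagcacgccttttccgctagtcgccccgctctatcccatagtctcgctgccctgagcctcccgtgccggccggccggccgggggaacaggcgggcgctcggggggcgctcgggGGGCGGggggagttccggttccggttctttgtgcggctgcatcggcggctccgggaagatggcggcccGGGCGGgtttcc
SMARCE1 (chr17:40647769-40648068, minus strand): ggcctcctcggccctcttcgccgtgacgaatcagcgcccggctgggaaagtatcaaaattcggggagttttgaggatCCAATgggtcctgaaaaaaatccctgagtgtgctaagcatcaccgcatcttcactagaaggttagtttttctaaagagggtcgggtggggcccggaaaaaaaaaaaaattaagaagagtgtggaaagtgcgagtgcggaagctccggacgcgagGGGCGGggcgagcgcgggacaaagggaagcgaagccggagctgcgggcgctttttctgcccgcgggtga

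The promoter table held 15 starts of 7 of the 10 genes. AGGTCA was in 0 of these 15 promoters and in 11.9% of all 22199 promoters of the same length. A direct repeat of AGGTCA with any 4 bases between the copies, the classical form bound by thyroid hormone receptors, was in 0 of the 15 and in 0.00901% of all. TGACTCA was in 2 of the 15, those of SMARCB1 and of the first SMARCA2 start, against 4.01% of all promoters, and CCAAT in 2, those of SMARCB1 and SMARCE1, against 34.7%. GGGCGG was in 9 of the 15 against 56.3% of all, with 5 copies in SMARCA4. The 2 overlapping SMARCD2 promoters share 81 bases, and a GGGCGG site in the shared bases counts in both. The median GC content was 66.0% in the 15 promoters and 62.3% over all, and SMARCA4 had 81.3% GC with 55 CG dinucleotides in its 300 bases. Letters in a window are a description only. GGGCGG overlapped itself in the internal SMARCD3 promoter, and no other motifs overlapped in the 15 promoters.

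Each list entry carries the authors' signal value, which adds up the values from both libraries and ranks a region within its own list. Values were not scaled between lists here, so a pair of values with T3 and with vehicle does not measure a gain or loss. The lists differ in length: 7208 TRβ regions with T3 and 1412 with vehicle, 55938 and 64299 for BRG1, 41710 and 49021 for ARID1A, and 38140 and 9115 for PBRM1. No count has a replicate check, because 1 list stood for each group, and read depth is unknown. The 2 library columns ranked regions alike in the vehicle lists of TRβ (Spearman's rho 0.97 across regions) and PBRM1 (0.90), but little in the T3 lists of TRβ (-0.03) and PBRM1 (0.26) or the ARID1A lists (0.21 with T3 and 0.16 with vehicle). The BRG1 lists had 0.47 with T3 and 0.48 with vehicle. Each rho covers only regions already kept for replicate agreement, so it does not show which list was more reproducible. With an irreproducible discovery rate of at most 0.01, TRβ kept 3417 of 7208 regions with T3 and 201 of 1412 with vehicle. PBRM1 kept 22991 of 38140 with T3 and 2124 of 9115 with vehicle. For BRG1 these were 38750 of 55938 and 45314 of 64299, and for ARID1A 24816 of 41710 and 23193 of 49021. BRG1 regions lay over the start of 4 thyroid marker genes with T3 and 3 with vehicle, out of 6 with an annotated start, while 58.1% of all genes with T3 and 62.9% with vehicle had one, so the lists give no check of the cell type. Starts of PAX8, FOXE1 and HHEX, which encode thyroid lineage factors, were listed in both conditions, and those of NKX2-1 and SLC5A5 in neither. BRG1 also lay over both fibroblast marker starts that could be scored, and over the 1 other epithelial one (KRT8), in both conditions, and over 0 of 1 immune start.

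**Figure D1:**
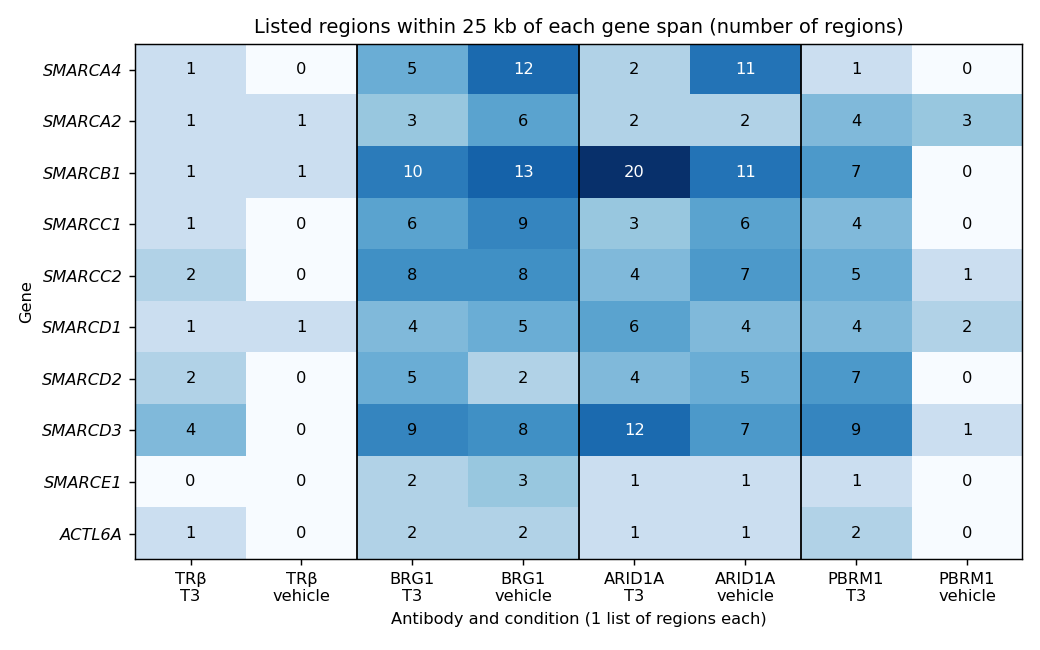
Number of listed regions within 25 kb of each gene span (rows) for each antibody and condition (columns, T3 left of vehicle). TRβ and PBRM1 columns are fuller with T3, SMARCB1 has the most ARID1A regions with T3 (20), and SMARCA4 has 2 ARID1A regions with T3 against 11 with vehicle.

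In the 10 windows, TRβ had 14 regions with T3 and 3 with vehicle, BRG1 54 and 68, ARID1A 55 and 55, and PBRM1 44 and 7. TRβ lay near 9 of the 10 genes with T3, against 39.3% of all protein-coding genes, and near 3 of the 10 with vehicle, against 11.1% of all. SMARCE1 was the gene with no TRβ region in either list. BRG1 lay near all 10 genes in both conditions (79.8% of all genes with T3 and 82.8% with vehicle), as did ARID1A (76.0% and 79.5%). PBRM1 lay near all 10 with T3 and near 4 with vehicle, against 78.1% and 44.0% of all genes. All 4 proteins were listed near 9 members with T3, against 36.6% of genes, and near 2 with vehicle, against 7.42%.

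The median member window was denser in listed regions than that of all genes. Median width was 82.7 kb against 74.1 kb over all genes, and median density over the 8 lists was 31.2 regions per 100 kb against 15.2. Density ranged from 9.64 per 100 kb at SMARCA2, 10.98 at SMARCE1, 11.8 at SMARCC1 and 11.9 at ACTL6A, all below the median of all genes, to 56.6 at SMARCD3 and 62.4 at SMARCB1. The shares of members near each protein stand beside these densities, whose part in them was not tested. The 21 other SWI/SNF subunit genes gave 13 with a TRβ region with T3 (39.3% of all genes). With vehicle they gave 3 (11.1% of all genes), namely ARID1A, BCL7A and BCL7B.

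**Figure D2:**
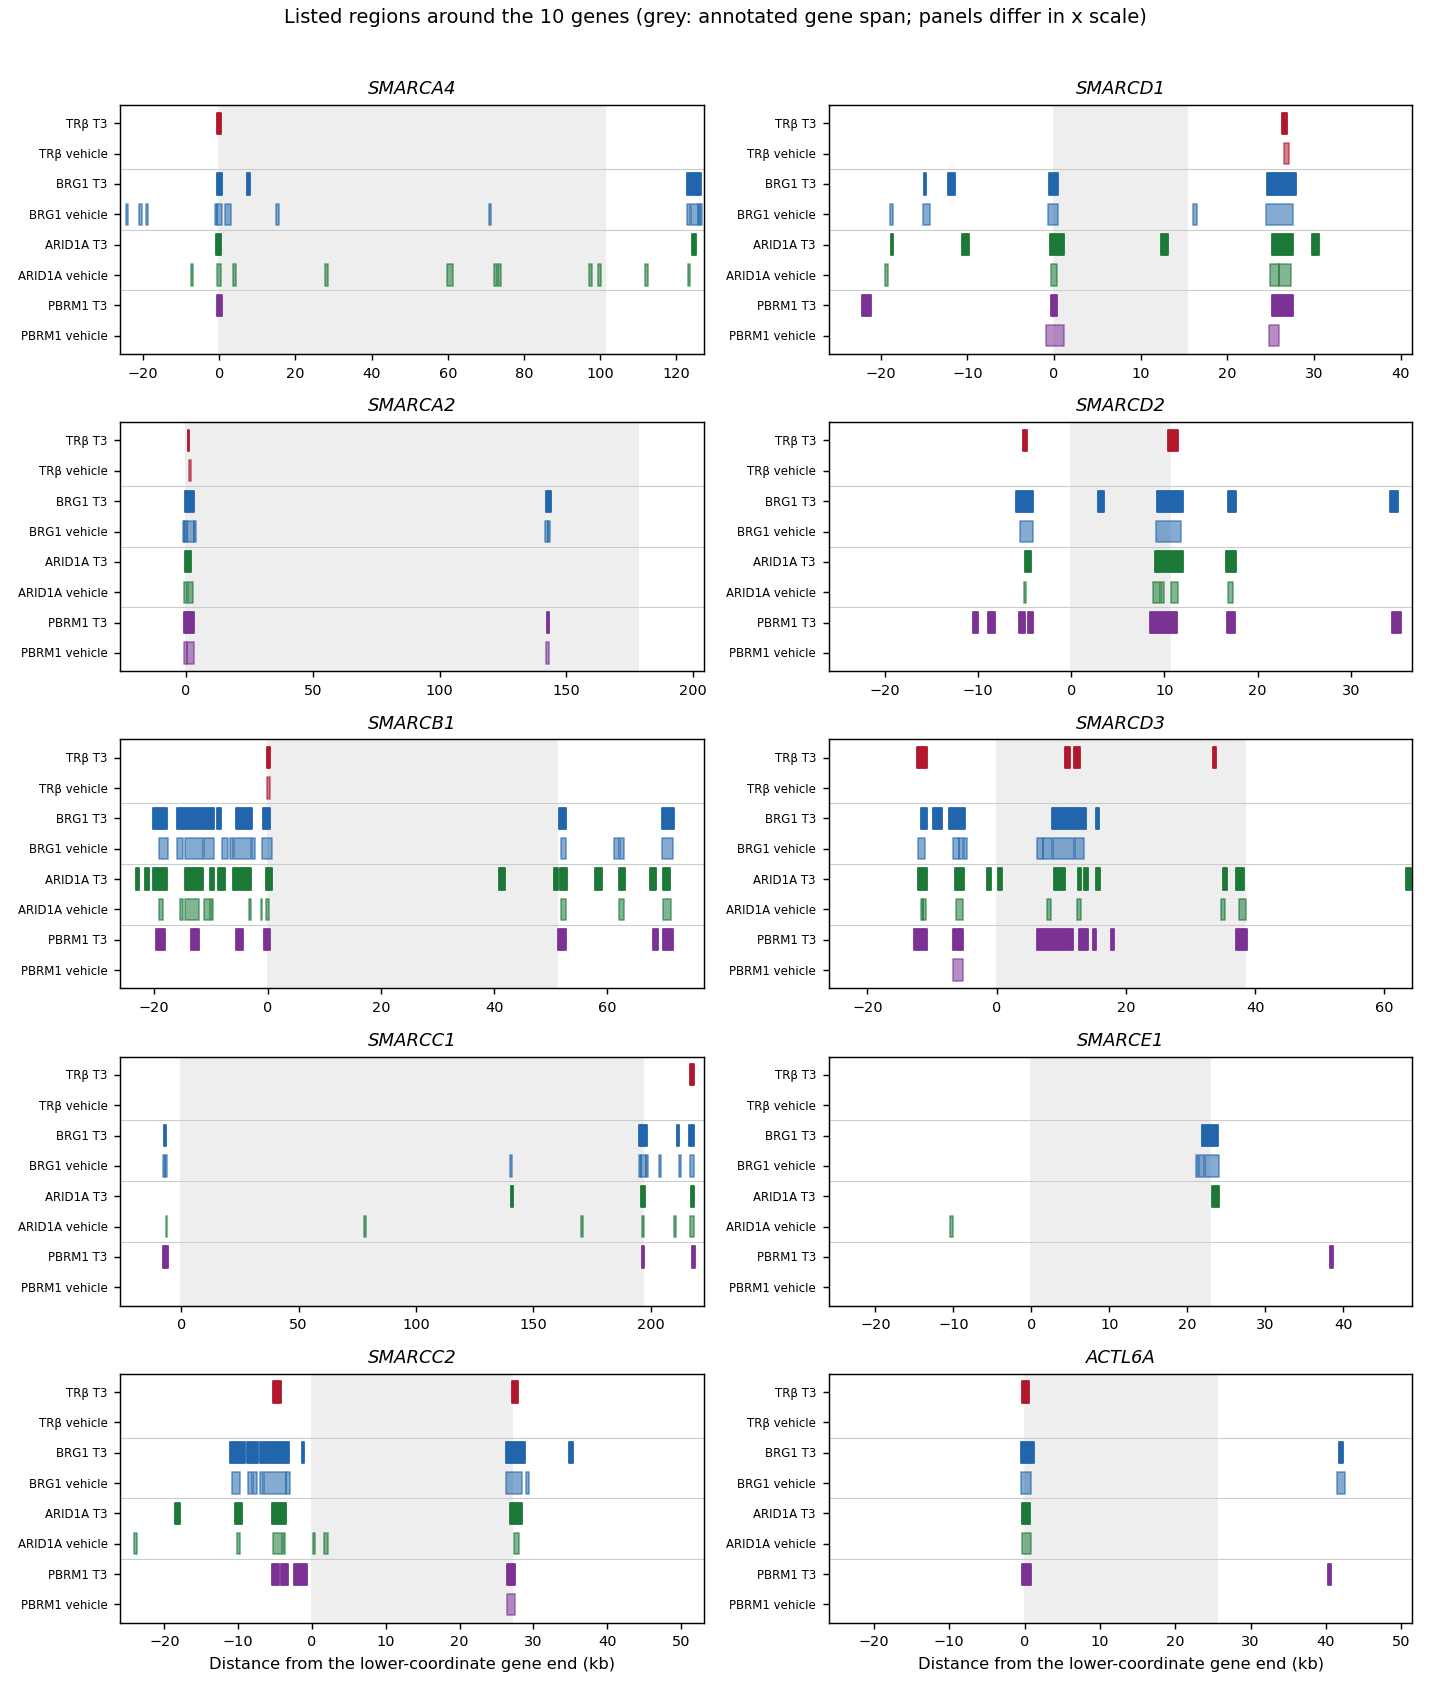
Listed regions of the 4 proteins along each window, with the distance from the lower-coordinate gene end in kb on the x axis (scales differ between panels), the annotated gene span in grey and 1 row per list, T3 above vehicle. Regions of several proteins stack at 1 end of most genes, and SMARCA4 carries scattered vehicle rows of BRG1 and ARID1A along its body.

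SMARCA4 encodes BRG1, the ATPase itself. The TRβ region at its start, chr19:10960531-10961495, was listed with T3 only, with library values of 6.13 and 6.74 and rank 21.0% of the list from the top. BRG1 lay over the same start in both conditions, with values of 14.01 with T3 and 15.5 with vehicle, and so did ARID1A (15.1 with T3, 8.93 with vehicle). PBRM1 covered it with T3 only (15.8). The SMARCA4 promoter printed above thus lies under all 4 proteins with T3 and under BRG1 and ARID1A with vehicle.

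Away from that start, the 2 conditions parted along the SMARCA4 gene. ARID1A had 2 regions in the window with T3 and 11 with vehicle, of which 8 vehicle regions overlapped the gene span. BRG1 had 5 with T3 and 12 with vehicle. Of the 19 loci formed by merging overlapping regions of all lists, 16 held a region of 1 list only, 15 of them with vehicle and 1 with T3. The 10 ARID1A regions listed with vehicle only reached signal values of at most 11.6, in a list whose median was 9.71. All ARID1A regions in the window together covered 2557 bp with T3 and 9201 bp with vehicle. A deficit of at least 9 ARID1A regions with T3, a size set after seeing SMARCA4, was found at 0.699% of protein-coding genes, and a deficit of at least 7 BRG1 regions at 1.24%. Neither share allows for window size or region number. Over all genes the median was 2 ARID1A and 3 BRG1 regions with vehicle. The median window was 74.1 kb, against 151 kb at SMARCA4. With an irreproducible discovery rate (IDR) of at most 0.01, the ARID1A counts were 2 with T3 and 6 with vehicle, and with a 5 kb flank 1 and 8.

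SMARCA2 encodes BRM, the ATPase that replaces BRG1 in some complexes. Its start was 1 of 2 loci in the 10 windows that carried all 8 lists, at chr9:2013959-2018356. TRβ was listed at chr9:2015906-2016402 with T3 (libraries 5.53 and 3.33) and at chr9:2016366-2017102 with vehicle (libraries 4.86 and 5.34), so the 2 regions touched only at their edges. Neither overlapped the promoter bases of the annotated start, which lay under BRG1, ARID1A and PBRM1 in both conditions. Over those promoter bases PBRM1 had 14.1 with T3 and 13.9 with vehicle, and ARID1A 10.3 with T3 and 9.98 with vehicle. Downstream of them in the same locus PBRM1 reached 20.5 with T3 and 22.3 with vehicle, and ARID1A 13.4 with T3 and 22.1 with vehicle. Far inside the gene, the locus chr9:2157090-2159256 covered 2 internal starts of SMARCA2 and held BRG1 (16.4 with T3, 15.01 with vehicle) and PBRM1 (11.5 with T3, 16.5 with vehicle) without ARID1A or TRβ. SMARCA2 was thus the member with the most PBRM1 regions in the vehicle list, 3 of the 7, against 4 with T3.

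SMARCB1 encodes the core subunit that contacts the nucleosome face and is lost in rhabdoid tumours. TRβ covered its start in both lists, at chr22:23786937-23787451 with T3 (libraries 7.09 and 4.60) and at chr22:23786834-23787349 with vehicle (libraries 5.47 and 5.48). BRG1 over the same start had 11.03 with T3 and 19.05 with vehicle, ARID1A 11.96 with T3 and 11.3 with vehicle, and PBRM1 10.9 with T3 and no region with vehicle. By rank from the top of its own list, BRG1 stood at 53.1% with T3 and 22.7% with vehicle, and ARID1A at 43.6% and 32.3%. It was the only member with TRβ over an annotated start in the vehicle list, out of 7 that could be scored, against 2.76% of 15843 genes. With T3 there were 3 such members, SMARCA4, SMARCB1 and SMARCD2, against 16.3% of genes.

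The SMARCB1 window had the largest ARID1A excess with T3, 20 regions against 11 with vehicle, covering 20003 bp and 9108 bp. Most of these lay outside the gene: 17 with T3 and 10 with vehicle. The neighbouring MMP11, a gene of a secreted matrix metalloprotease, held 9 of them with T3 and 4 with vehicle. An excess of at least 9 ARID1A regions, again a size set after seeing the values, occurred at 0.509% of genes. That share also makes no allowance for region number, and the median over all genes was 2 ARID1A regions with T3. The MMP11 locus chr22:23771467-23776297 was the strongest BRG1 region with T3 in all 10 windows, with 47.1 (libraries 22.2 and 24.9), at 0.742% of its list. PBRM1 had 7 regions in the SMARCB1 window with T3 and 0 with vehicle. Within 5 kb of SMARCB1 the ARID1A counts were 7 with T3 and 4 with vehicle.

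SMARCC1 and SMARCC2 encode the scaffold subunits on which the core assembles. No TRβ region touched SMARCC1. The 1 in its window, chr3:47802004-47803547 with T3 only (libraries 6.24 and 7.67), covered the start of DHX30, an RNA helicase gene. The higher-coordinate end of SMARCC1 carried BRG1 (16.6 with T3, 27.6 with vehicle), ARID1A (16.4 with T3, 9.89 with vehicle) and PBRM1 with T3 only (18.4) in the locus chr3:47781021-47783819. Over the whole SMARCC1 window BRG1 had 6 regions with T3 and 9 with vehicle, and ARID1A 3 and 6.

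At SMARCC2 both TRβ regions were listed with T3 only. The region chr12:56189496-56190266 (libraries 4.82 and 5.44) began 13 bp beyond the higher-coordinate end of the gene, and chr12:56157105-56158103 (libraries 4.45 and 5.91) lay over MYL6B, a myosin light chain gene next to MYL6. At the SMARCC2 end PBRM1 was listed in both conditions, with 18.6 with T3 and 11.4 with vehicle, and BRG1 with 24.2 with T3 and 32.1 with vehicle. The locus over MYL6B and MYL6 held the highest BRG1 value of the window with T3, 35.3, and the second highest ARID1A value with T3 among the 10 windows, 27.1. Both SMARCC genes therefore had remodeler regions at the higher-coordinate end, and only SMARCC2 had TRβ there.

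The SMARCD genes encode interchangeable subunits that link the core to transcription factors. At SMARCD1 the start carried BRG1 (9.25 with T3, 19.1 with vehicle), ARID1A (17.7 with T3, 9.42 with vehicle) and PBRM1 (11.8 with T3, 24.3 with vehicle) but no TRβ. With SMARCA2, it was 1 of 2 members with PBRM1 over an annotated start in the vehicle list. The TRβ regions of the window lay at the start of COX14, a gene of cytochrome oxidase assembly, at chr12:50111634-50112200 with T3 (libraries 11.1 and 3.71) and chr12:50111855-50112420 with vehicle (libraries 5.24 and 5.10). That COX14 start was the other locus with all 8 lists, and it held the highest ARID1A value of the 10 windows with T3, 34.4, at 0.758% of the list.

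SMARCD2 had TRβ at its start with T3 only, chr17:63842514-63843507, with library values of 6.56 and 6.68. The same start carried ARID1A (25.9 with T3, 14.2 with vehicle), BRG1 (23.6 with T3, 30.7 with vehicle) and PBRM1 with T3 only (25.3). A second TRβ region with T3 only, chr17:63826865-63827327 (libraries 6.66 and 5.19), lay over the promoter bases of PSMC5, an ATPase gene of the proteasome. SMARCD2 was 1 of 2 members with more BRG1 regions with T3 (5) than with vehicle (2), the other being SMARCD3 (9 and 8), whereas 6 members had fewer. Over all genes 19.8% had more and 42.3% had fewer. All 7 PBRM1 regions of the SMARCD2 window were listed with T3 only.

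SMARCD3, whose product is best known from heart and muscle, had the most TRβ regions of any member, 4 with T3 and 0 with vehicle. With an IDR of at most 0.01 it had 2 with T3, as did SMARCC2 and SMARCD2. With both TRβ lists held to the shorter length by signal value it had 1, as did SMARCC1, SMARCD1 and SMARCD2. The strongest TRβ region of the 10 windows, chr7:151226471-151228058, had 22.2 in sum, at 2.71% of its list, but its libraries were unequal at 15.4 and 6.74. It covered the start of the neighbouring ABCF2, a gene of the ATP-binding cassette family. A pair inside SMARCD3 lay upstream of its internal start without covering it, at chr7:151249312-151250161 (libraries 7.19 and 2.63) and chr7:151250826-151251689 (libraries 6.33 and 4.37). The fourth, chr7:151272344-151272699 (libraries 4.73 and 3.62), was the only TRβ region in the 10 windows that no remodeler list overlapped.

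At that internal SMARCD3 start the locus spanned 7883 bp, the widest of all members. PBRM1 reached 43.4 with T3 at chr7:151245061-151250047 (libraries 12.8 and 30.6), within the first 0.315% of its list, and had no region there with vehicle. The highest BRG1 value in the locus was 20.9 with T3 and 40.8 with vehicle. The distal SMARCD3 starts, in chr7:151275780-151277602, held ARID1A (11.2 with T3, 12.2 with vehicle) and PBRM1 with T3 only (22.8), with no BRG1 and no TRβ. ARID1A covered 1 of the 2 promoters there with T3 and both with vehicle. Across its window SMARCD3 had 12 ARID1A regions with T3 and 7 with vehicle, and 9 PBRM1 regions with T3 and 1 with vehicle.

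SMARCE1 encodes a subunit with an HMG domain that binds DNA. It was the sparsest member in counts, with 8 regions over all lists. BRG1 covered its start in both conditions, with library values of 3.23 and 6.66 with T3 and 10.96 and 3.42 with vehicle. With an IDR of at most 0.01, BRG1 kept 0 regions in the SMARCE1 window with T3 and 2 with vehicle. An ARID1A region with T3 only, chr17:40648079-40649020 (10.2), lay beside the promoter bases printed above without overlapping them. PBRM1 had 1 region in the window, with T3, at the neighbouring keratin gene KRT222. SMARCE1 was the only one of the 7 scored members with neither PBRM1 nor ARID1A over an annotated start in either condition.

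ACTL6A encodes the actin-related protein of the complex, which other remodelers share. All 4 proteins met at its lower-coordinate end with T3. TRβ was listed at chr3:179562546-179563530 with T3 only, with unequal library values of 8.27 and 3.33. BRG1 had 22.01 with T3 and 24.02 with vehicle, ARID1A 18.2 with T3 and 13.4 with vehicle, and PBRM1 19.8 with T3 and no region with vehicle. The BRG1 region ranked at 12.8% of its list in both conditions. The remaining loci of the ACTL6A window lay over MRPL47 and NDUFB5.

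Read at the gene ends, the 4 proteins differed in how many members they marked. A gene counted when any of its annotated starts was covered. The 7 members with such a start hold 15 starts, against 22199 over 15843 genes, and the shares do not allow for this. Of these 7 genes, BRG1 lay over a start of all 7 in both conditions (58.1% of genes with T3 and 62.9% with vehicle), at SMARCD3 over the internal start only. ARID1A did so at 6 with T3 (50.9%) and 6 with vehicle (46.5%), and PBRM1 at 6 with T3 (58.0%) and 2 with vehicle (20.8%). Within 1 kb of either end of the span, which can be read for all 10 genes, TRβ was listed at 6 with T3 (18.1% of genes) and at 1 with vehicle (3.33%). BRG1 was there at 9 with T3 (59.1%) and 9 with vehicle (63.1%), and ARID1A at 10 (53.4%) and 9 (52.4%). PBRM1 was there at 9 with T3 (59.5%) and 3 with vehicle (21.9%). SMARCD3 was the gene without BRG1 at an end, and SMARCE1 the gene without PBRM1 there with T3.

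**Figure D3:**
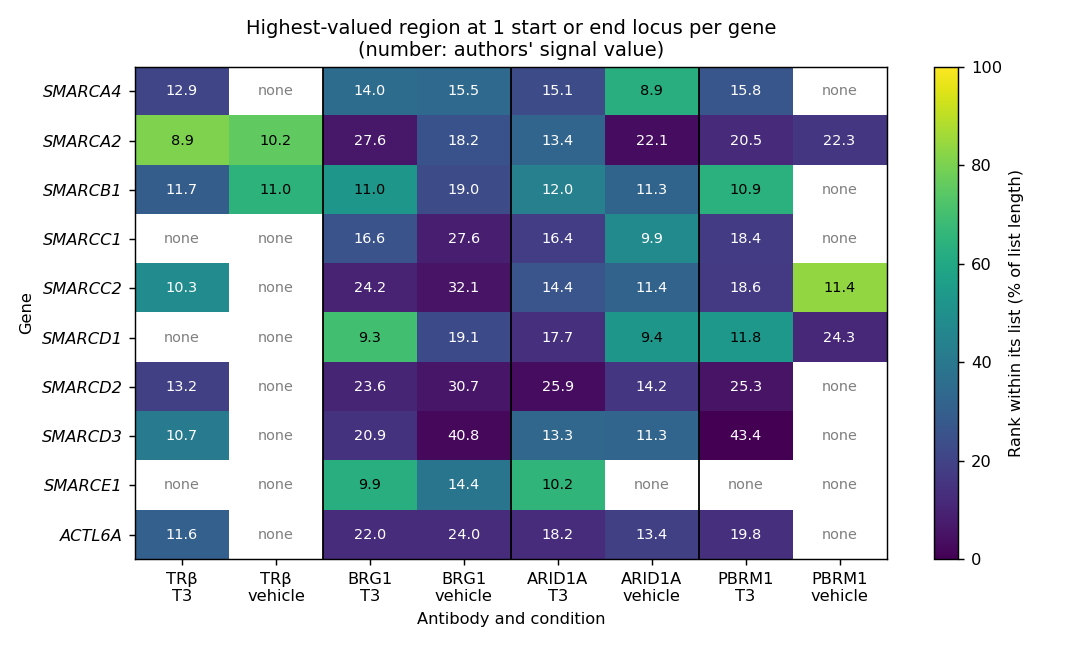
Signal value of the highest region at 1 start or end locus per gene (rows) in each list (columns, T3 left of vehicle). The colour gives its rank within that list as a percentage of the list length, and "none" marks a list with no region. For each gene the start or end locus with the most lists is shown, a choice that favours presence. BRG1 is present at every locus shown, but not at the distal SMARCD3 starts, which are not shown. Among the loci shown, PBRM1 with vehicle is at SMARCA2, SMARCC2 and SMARCD1 only, and TRβ is missing at SMARCC1, SMARCD1 and SMARCE1.

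Merging overlapping regions of the 8 lists gave 101 loci, of which 58 held 1 list only (27 with T3, 31 with vehicle) and 14 held at least 6. TRβ was listed at 13 loci, 10 with T3 only and 3 in both conditions. At 12 of these 13, BRG1 and ARID1A were each listed in both conditions. PBRM1 was listed with T3 only at 9 of the 13, in both conditions at 3 and in neither at 1. At the 88 loci without TRβ, BRG1 was in both conditions at 21 and ARID1A at 13, and PBRM1 was in both at 3 and with T3 only at 20. TRβ loci were wide, with a median of 2365 bp against 745 bp for the others, and 10 of 13 covered an annotated start against 13 of 88. That count is of whole loci. The TRβ regions themselves overlapped an annotated start in 7 of 14 cases with T3 and in 2 of 3 with vehicle. Width and lists per locus are not independent, since merging more lists widens a locus. The 58 loci of 1 list cannot carry a protein in both conditions, so the contrast between loci with and without TRβ depends in part on how loci were formed.

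Overlap was also read region by region, between lists of the same condition. Of the 14 TRβ regions with T3, 13 overlapped BRG1, 13 ARID1A and 13 PBRM1 of the T3 lists, which is 92.9% (exact 95% interval 66.1 to 99.8%) for each. Over the whole TRβ list with T3 the shares were 68.2%, 66.3% and 62.4%. The 3 TRβ regions with vehicle overlapped BRG1 and ARID1A in all 3 cases (exact 95% interval 29.2 to 100%) and PBRM1 in 1, against 56.0%, 57.8% and 17.8% of the whole vehicle list. BRG1, ARID1A and PBRM1 met at 21 loci with T3 and at 5 with vehicle.

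**Figure D4:**
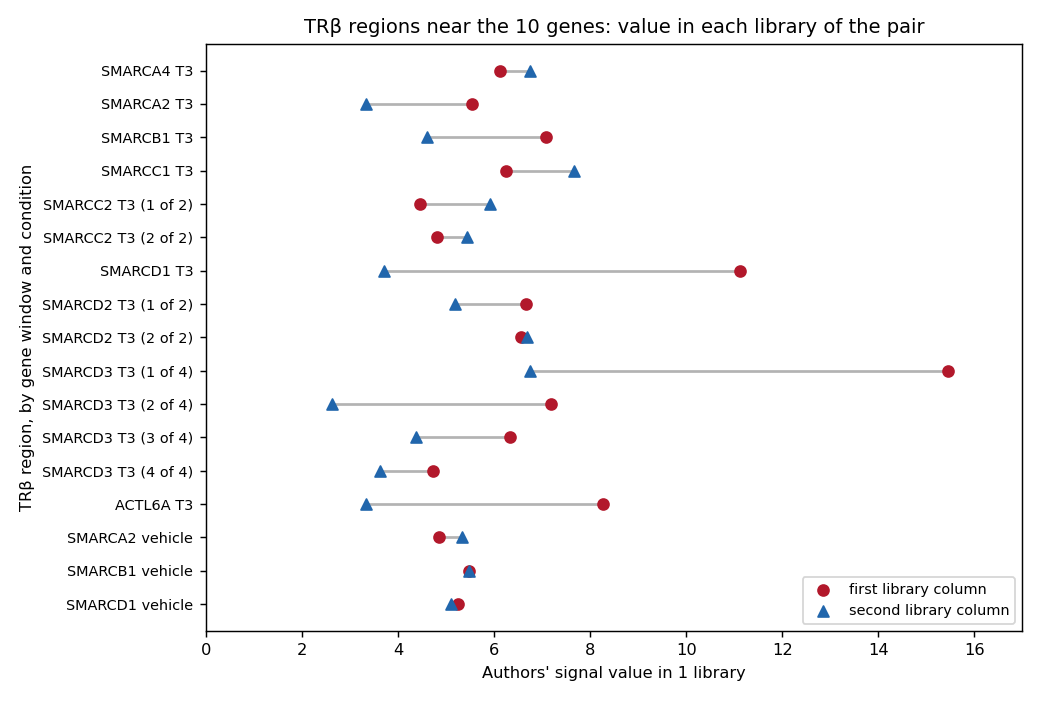
The authors' signal value in each of the 2 libraries (circle and triangle, joined by a line) for each TRβ region in the 10 windows, T3 rows above vehicle rows. The 3 vehicle regions have near-equal values between 4.86 and 5.48, while T3 regions spread from 2.63 to 15.4, with the largest gaps at SMARCD1 and SMARCD3. Near-equal values do not mark the more reproducible list. With an IDR of at most 0.01, 0 of the 3 vehicle regions and 10 of the 14 T3 regions were kept.

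Regions listed in 1 condition only, meaning no overlap of at least 1 bp with the other condition's list, made up 11 of 14 TRβ regions with T3 and 0 of 3 with vehicle. The T3 share of 78.6% (interval 49.2 to 95.3%) compares with 93.0% of the whole list, and the vehicle share of 0% (interval 0 to 70.8%) with 67.1%. For PBRM1 they were 35 of 44 with T3, or 79.5% against 79.2% of the whole list, and 0 of 7 with vehicle (interval 0 to 41.0%), against 24.9% of that list. BRG1 had 12 of 54 with T3 and 22 of 68 with vehicle, or 22.2% and 32.4% against 23.3% and 29.3% of the whole lists. ARID1A had 25 of 55 with T3 and 22 of 55 with vehicle, or 45.5% and 40% against 46.5% and 51.6%. The shares of BRG1, ARID1A and PBRM1 with T3 near these genes are thus close to those of the whole lists, and the intervals, which cover counting error only, include them.

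**Figure D5:**
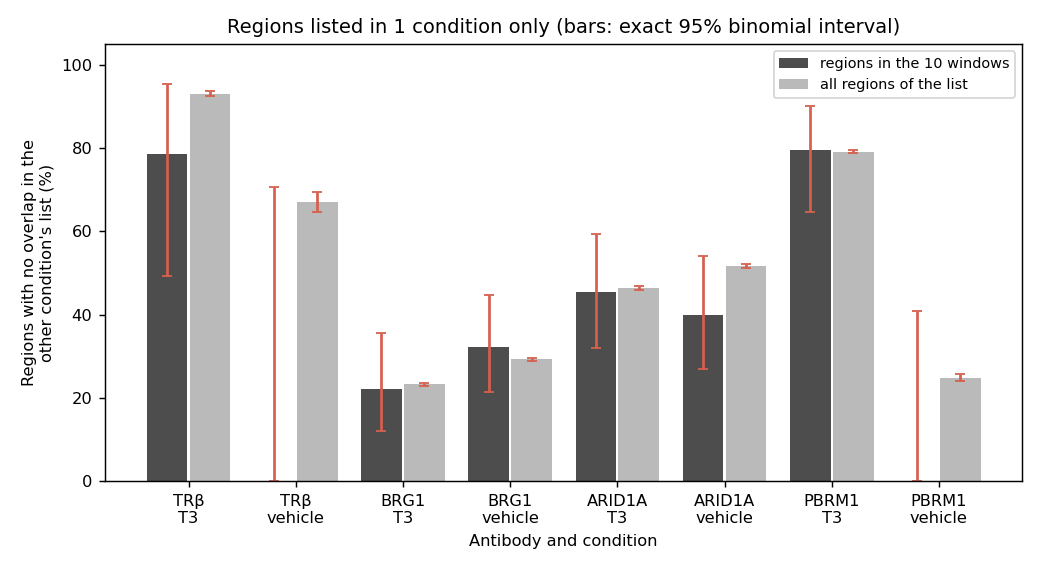
Share of regions with no overlap in the other condition's list, in percent, for the regions in the 10 windows (dark bars) and for all regions of each list (light bars), T3 left of vehicle. Error bars are exact 95% binomial intervals. The dark bars sit near the light ones for BRG1, ARID1A and PBRM1 with T3, and the intervals of the small TRβ and PBRM1 vehicle counts are wide.

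More PBRM1 regions with T3 than with vehicle were listed at all 10 members, against 69.5% of genes, and fewer at 0, against 1.41%. More TRβ regions with T3 were listed at 6 members, against 36.0% of genes, and fewer at 0, against 3.02%. These counts follow lists of unequal length. When both lists of a protein were held to the length of the shorter one by signal value, TRβ regions with T3 remained in 4 windows, those of SMARCC1, SMARCD1, SMARCD2 and SMARCD3, with 4 regions against 3 with vehicle, and 13 PBRM1 regions with T3 stood against 7 with vehicle. ARID1A had no common direction over the members: 3 had more regions with T3 (SMARCB1, SMARCD1 and SMARCD3) and 4 had fewer (SMARCA4, SMARCC1, SMARCC2 and SMARCD2), against 25.7% and 40.9% of genes.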

How the data were processed

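Nuclei of 500000 cells per reaction were profiled by CUT&RUN, per the labels' protocols, which do not say that the 2 libraries of a group came from separate cultures. Tools in the submitters' processing notes are MACS2, Bowtie2, Trim Galore and CASAVA 1.7, and the build is hg38. Neither parameters nor any use of IgG as a control is given in the sources used here. Per the file layout, the authors deposited 1 list per group of regions found in both libraries, with a signal value (the sum of both libraries' values, in an order not tied to replicate numbers), a score, not used, and the −log10 of the IDR, a measure of replicate agreement that reached 0.05. A region is the union of both libraries' intervals, and 16 summit columns were not used.

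Regions on chromosomes 1 to 22, X and Y were assigned by 1 bp overlap to gene spans with 25 kb flanks, from a RefSeq table without exons, so exonic or intronic position is not known here. No test was run, since 1 list per group has no replicates. Shares have exact (Clopper-Pearson) binomial intervals for counting error across regions. Overlap counting was tested on simulated lists (0 wrong of 1600 gene windows). The members and lists were chosen with earlier results of these data known. Genes named are the members, genes in their windows, and other subunit genes that a small count singled out. Some regions that this covers are not reported here. Python 3.11.15 was used with pandas 2.3.3, scipy 1.17.1, numpy 2.4.6 and matplotlib 3.10.9.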

Additional observations from a re-analysis of the deposited data

How the results depend on the processing

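No paired analysis was possible because each group had 1 list and no test was run. With an IDR of at most 0.01, TRβ with vehicle kept 0 regions, 0 genes and 0 genes with a region over a start. ARID1A had 36 regions with T3 and 27 with vehicle, 9 of the vehicle ones in that condition only, and PBRM1 with vehicle had 2 regions at 2 genes, 1 over a start. TRβ with T3 was then near 7 members, without SMARCA2 and ACTL6A. BRG1 with T3 was near 9 members and over a start of 6, in both cases without SMARCE1. With 5 kb flanks, BRG1 had 28 regions with T3 and 36 with vehicle (4 and 12 in 1 condition only), ARID1A 30 and 32 (13 and 13), and PBRM1 25 with T3 (19 in T3 only). With lists of equal length, TRβ with T3 had 4 regions at 4 genes, 3 of them in T3 only, against 2 in vehicle only, and PBRM1 13 with T3, 10 in T3 only, against 4 in vehicle only. A reciprocal overlap of 50% gave 29 BRG1 regions in T3 only and 43 in vehicle only, 40 and 40 for ARID1A, 1 for TRβ with vehicle and 2 for PBRM1 with vehicle. Within 1 kb of a start, TRβ with T3 was at 5 members. With the interval of 1 library, TRβ regions in vehicle only ranged from 0 to 1. A tolerance of 500 bp moved 0 of 8 counts by over 1.5 times. The cause of these shifts was not tested. Few regions per gene, unknown read depth and 1 list per group limit every count.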

Other observations

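Among the 21 other SWI/SNF subunit genes, BRG1 lay within 25 kb of 20 in both conditions, the exception being BCL11A, a zinc finger gene of neural and lymphoid lineages. Of all protein-coding genes, 79.8% had such a BRG1 region with T3 and 82.8% with vehicle. ARID1A lay near 20 with T3 (not BCL11A) and near 20 with vehicle (not SS18), against 76.0% and 79.5% of all genes. PBRM1 lay near 21 with T3 and near 14 with vehicle, against 78.1% and 44.0% of all genes. PBRM1 regions were more numerous with T3 at 20 of the 21, against 69.5% of all genes. The sizes seen at SMARCA4 and SMARCB1 for ARID1A, 9 fewer and 9 more regions with T3, were met by 0 of the 21 (0.699% and 0.509% of all genes). The BRG1 deficit of at least 7 regions at SMARCA4 was met by 1 of the 21 (1.24% of all genes), BICRA, with 13 regions with T3 and 21 with vehicle. The shares of all genes for these sizes do not allow for window size or region number.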
